A study of Sus scrofa with 2 samples.

Results

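C1Q-positive macrophages of the pig endometrium are described here, as 396 of 25138 droplet barcodes (1.58%) in 2 single-cell RNA libraries, 234 of 15093 in library 2 and 162 of 10045 in library 1. The macrophages were chosen by their own transcripts, and a barcode was taken when it held at least 3 UMIs (unique molecular identifiers, that is, counted molecules) of C1QA plus C1QB and at least 1 UMI of TYROBP plus FCER1G. Barcodes with 3 or more UMIs of the antibody genes JCHAIN plus CD79A were left out, as were those with 2% or more of their UMIs in the gland genes ACP5, RBP4 and UABP-2. The endometrium is the inner lining of the uterus. It was taken from the uterine horns of 2 Yorkshire sows, 3 years old and artificially inseminated, 1 at day 7 of gestation (called pre-receptive by the study) and 1 at day 13 (called receptive). The tissue was digested with enzymes, red cells were lysed, and the 3′ ends of transcripts were captured in droplets. No treatment or engineered allele is given for either animal. The sample labels name the libraries only by number and do not say which came from which day. The names of the deposited matrices carry a pre-receptive tag for library 1 and a receptive tag for library 2, so values are given by library and not by stage. Each library is 1 sample from 1 sow, so no difference between them was tested and every interval below covers counting error only.

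Macrophages are resident phagocytes that clear dying cells and debris and signal to other immune cells through chemokines. C1q, the first component of the classical complement pathway, is made largely by macrophages, and TYROBP and FCER1G are small signalling adaptors shared by many of their surface receptors. In the pregnant endometrium macrophages lie in the stroma and around vessels and are known for tissue remodelling and for the local balance between defence and tolerance.

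The libraries stood apart as wholes. The macrophages held a median of 4205 UMIs in library 2 and 3450.5 UMIs in library 1, against 4339 and 3431 UMIs in all other barcodes. Ribosomal protein genes took 5.81% of macrophage UMIs in library 2 and 11.1% in library 1, and 5.78% and 14.5% of the UMIs of other barcodes. LRMDA, a gene with very long introns, had a log2 ratio of library 2 over library 1 of 6.48 in macrophages, 6.58 in endothelial barcodes and 5.95 in lymphocyte barcodes, and KDM5B, a histone demethylase gene, had 4.52, 4.50 and 4.40. For many of the genes below, the ratio in 1 or both of these other sets of barcodes is therefore given beside that in macrophages. The endothelial set had 3058 barcodes in library 2 and 3244 in library 1 with at least 3 UMIs of PECAM1, CDH5, CLDN5 and EGFL7, and the lymphocyte set had 627 and 188 with at least 3 UMIs of T and natural killer cell genes. Both sets had 0 UMIs of C1QA and C1QB by construction. The libraries shared 48 barcode sequences, of which 0 were macrophages in both libraries and 2 were macrophages in 1 of them.

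The barcodes carried macrophage genes beyond those of the rule. All 14 macrophage markers with a symbol, of 20 fixed and with the rule's own genes among them, were at least 2-fold higher in these barcodes than in the other barcodes of both libraries. They summed to 11941 CPM (summed UMIs of a gene per 1000000 UMIs of the same cells) in library 2 and 12276 CPM in library 1, against 256 and 279 CPM in other barcodes. C1QB (ENSSSCG00025027715), a chain of C1q, stood at 3992 CPM (95% Poisson interval 3884 to 4104) in library 2, against 4625 CPM (4469.8 to 4784) in library 1, and C1QA had 2394 and 2213 CPM. FCGR3A, the low-affinity IgG receptor CD16, stood at 2642 CPM in library 2, against 2171 CPM in library 1. It was not particular to macrophages, since lymphocyte barcodes held 855 and 962 CPM, but endothelial barcodes held only 7.28 and 5.36 CPM. C3AR1 and C5AR1, receptors for the complement fragments C3a and C5a, were also among the 20 leading genes. In library 2 C3AR1 was at 164 CPM and in library 1 at 136 CPM, against 2.41 and 1.14 CPM in other barcodes. C5AR1 had 176 and 331 CPM, against 2.62 and 2.35 CPM. The scavenger receptor gene MSR1, the inflammasome sensor gene NLRP3 and its protease gene CASP1, the integrin gene ITGAM and the bacterial lipoprotein receptor gene TLR2 were at 101 to 175 CPM in both libraries. These levels describe cells that the rule chose on their own transcripts and are given with no test.

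**Figure D1:**
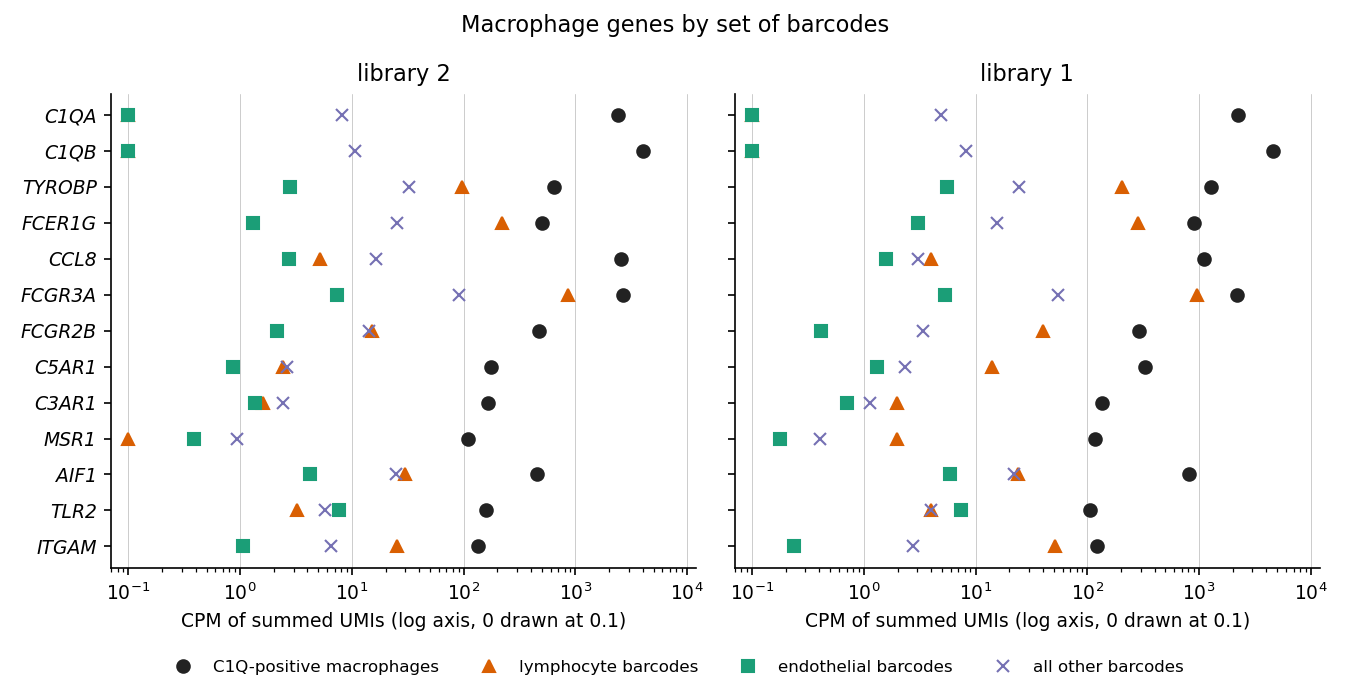
Summed level of 13 macrophage genes (CPM, log axis) in C1Q-positive macrophages and in lymphocyte, endothelial and all other barcodes, library 2 on the left and library 1 on the right, with zeros at the left edge. The macrophages are highest for each gene, and lymphocyte barcodes also hold FCGR3A, at 855 and 962 CPM, whereas endothelial barcodes hold 7.28 and 5.36 CPM.

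Several defining names had no symbol in the deposited feature tables. C1QC, CSF1R, CD68, CD163, MAF, LAPTM5 and FOLR2 were among them, so 23 of 31 genes fixed by name could be read and nothing is said of the others. CD14, the lipopolysaccharide co-receptor, was read at 98.6 CPM in library 2 and 85.5 CPM in library 1. LYVE1, a hyaluronan receptor of resident perivascular macrophages in mice, was low, with 11 UMIs in library 2 and 0 in library 1. S100A8 and S100A9, calcium-binding proteins of monocytes and neutrophils, had 0 UMIs in the macrophages of both libraries, but 4 of 8 monocyte markers were at least 2-fold over other barcodes, and the list summed to 934 CPM in library 2 and 489 CPM in library 1, against 298 and 258 CPM in other barcodes. CD3D and CD3G, which mark T cells, had 4 and 1 UMIs in library 2 and 0 each in library 1. The T or NK cell list summed to 553 CPM in library 2 and 179 CPM in library 1, against 328 and 182 CPM in other barcodes, with the cytotoxic granule gene NKG7 at 163 and 136 CPM in macrophages.

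The C1q threshold cut through few barcodes. Of the barcodes that met the other limits, 16 in library 2 and 6 in library 1 had 2 UMIs of C1QA plus C1QB, just outside, and 8 and 2 had 3 UMIs, just inside. The macrophage markers that the rule did not use summed to 1084 and 944 CPM just outside and to 1269 and 1865 CPM just inside. With 4 to 9 UMIs they summed to 4372 CPM in library 2, against 1172 CPM in library 1. With 10 or more they summed to 4603 and 3718 CPM, and 185 and 133 macrophages lay there. The adaptor limit removed more, namely 64 barcodes in library 2 and 9 in library 1 with enough C1q but 0 UMIs of TYROBP and FCER1G. These held 1283 and 1334 CPM of the same markers at medians of 2033 and 1426 UMIs. The gland limit removed 25 barcodes in library 2 and 0 in library 1.

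The macrophages made up 1.55% of library 2 (95% Clopper-Pearson interval 1.36 to 1.76%) and 1.61% of library 1 (1.38 to 1.88%). The difference was -0.0624 percentage points and lay within the counting intervals. When every barcode was thinned to 1000 UMIs, the shares were 0.890% in library 2 and 1.25% in library 1, with 928 and 551 shallower barcodes left out. C1q was also found at low level outside the macrophages, as 1 UMI in 724 barcodes of library 2 and 428 of library 1.

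Clustering of the macrophages within each library separated barcodes that carried a second cell type's transcripts from those led by macrophage genes. A sub-cluster was called mixed where the markers of another cell type were at least 3-fold higher than in the rest of the macrophages and the macrophage markers were lower. Mixed sub-clusters held 66 of 234 macrophages in library 2 (28.2%, 22.5 to 34.4%) and 50 of 162 in library 1 (30.9%, 23.9 to 38.6%). In library 2 they were a smooth muscle sub-cluster led by ACTA2 (35 barcodes), a stromal one with RORB and DCN (18) and an endothelial one with CLEC3B and CLDN5 (13). In library 1 they were a stromal and muscle sub-cluster with COL1A1 (31 barcodes) and an endothelial one with APOA1 and AQP1 (19). Their median depth was 8091 UMIs in library 2 and 6551.5 UMIs in library 1, against 3382 and 2807.5 UMIs in the macrophage-led sub-clusters. Scrublet called 49 and 26 of the mixed barcodes doublets, and 1 and 4 of the macrophage-led ones. The macrophage-led sub-clusters held 168 macrophages in library 2 and 112 in library 1, which is 1.11% of each library. Stromal fibroblast markers summed to 3437 CPM in all macrophages of library 2 and 10085 CPM of library 1, and to 631 and 1608 CPM in the macrophage-led ones. Endothelial markers summed to 707 and 1563 CPM in all, and to 414 and 727 CPM in the macrophage-led ones. Gland markers summed to 3188 and 262 CPM in all and to 2399 and 198 CPM in the macrophage-led ones, and their part in the differences below was not tested.

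The macrophages of library 2 formed 3 macrophage-led sub-clusters with different genes. The first held 72 macrophages and was led by C4BPA, the alpha chain of the complement inhibitor C4b-binding protein, at 3759.8 CPM against 408 CPM in the rest. Beside it stood MRC1, the mannose receptor, at 526 against 106 CPM, COLEC12, a scavenger receptor, at 282 against 28.2 CPM, and the chemokine gene CCL14 at 319.6 against 43.2 CPM. The list of perivascular or resident macrophage genes summed to 2763 CPM in this sub-cluster and to 861 CPM in the rest. LYVE1, a defining gene of that list, was at 23.5 CPM, so the list name rests on the other members.

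The second sub-cluster of library 2 held 64 macrophages. TIMP1, an inhibitor of matrix metalloproteinases, was found in 85.9% of them and had 1854 against 477 CPM in the rest, and CD86, a costimulator of T cells, had 625 against 189 CPM. SPP1, which encodes osteopontin, had 912 against 134 CPM, but it was found in 9 of the 64, and 3 barcodes held 102, 85 and 64 of its 276 UMIs. The antigen-presenting list summed to 2317 CPM here and to 2436 CPM in the 32-barcode sub-cluster described next. The MHC class II gene SLA-DRA1 was not on that list. It had 12279 CPM in this sub-cluster, against 6335 CPM in the first and 8891 CPM in the 32-barcode one. Monocyte markers summed to 1679 CPM in the 64 barcodes against 702 CPM in the rest, and PLAC8, one of them, was found in 93.8% of the 64. The T or NK cell list summed to 1189.9 CPM against 356 CPM in the rest, past the 3-fold limit of a mixed sub-cluster. Macrophage markers were not lower, at 13713 against 11392 CPM, so the sub-cluster was not called mixed. CCL5 was at 777 CPM, and the part of the T or NK cell list in this sub-cluster was not tested. At the finer resolution of 1.0, a mixed sub-cluster of 5 barcodes had T or NK cell markers at 4710 CPM. It held 88 CCL5 UMIs, in 2 of its barcodes.

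The smallest macrophage-led sub-cluster of library 2, with 32 macrophages, was led by RNF128, a ubiquitin ligase gene, at 305 CPM against 16.4 CPM in the rest. CCL8 was at 8485 against 1949 CPM, TNF at 1514 against 341 CPM, and CXCL10 at 11555 CPM, against 4178 and 5298 CPM in the other macrophage-led sub-clusters. Other chemokine genes led elsewhere, CCL14 in the first sub-cluster and CCL5 in the second, where T or NK cell markers were also higher. C3, the central complement component, had 1201 against 206 CPM. C4BPA had 0 UMIs there and MRC1 had 8.46 CPM. The list of dividing cell genes summed to 1633 against 593 CPM and that of dendritic cell genes to 1675 against 498 CPM. HMGB2, a dividing list gene among the leading genes of this sub-cluster, was found in only 9 of the 32.

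Library 1 had a single macrophage-led sub-cluster of 112. RNF128 had 515 CPM in it, C3 had 1823 CPM and CX3CR1, the fractalkine receptor, had 363 CPM. C4BPA had 0 UMIs, MRC1 had 61.1 CPM and COLEC12 had 8.72 CPM. In library 2, RNF128 was at 14.1 CPM in the C4BPA sub-cluster and 3.31 CPM in the 64-barcode sub-cluster with TIMP1. These genes chose the sub-clusters, so the values describe them and test nothing. At the finer resolution of 1.0 the 112 split into groups of 40, 38 and 34. With called doublets left out, library 1 had macrophage-led sub-clusters of 61 and 46. CCL8 was at 2567 against 691 CPM in the rest for the larger, and RNF128 at 753 against 253 CPM for the smaller. The single sub-cluster therefore depends on the setting.

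**Figure D2:**
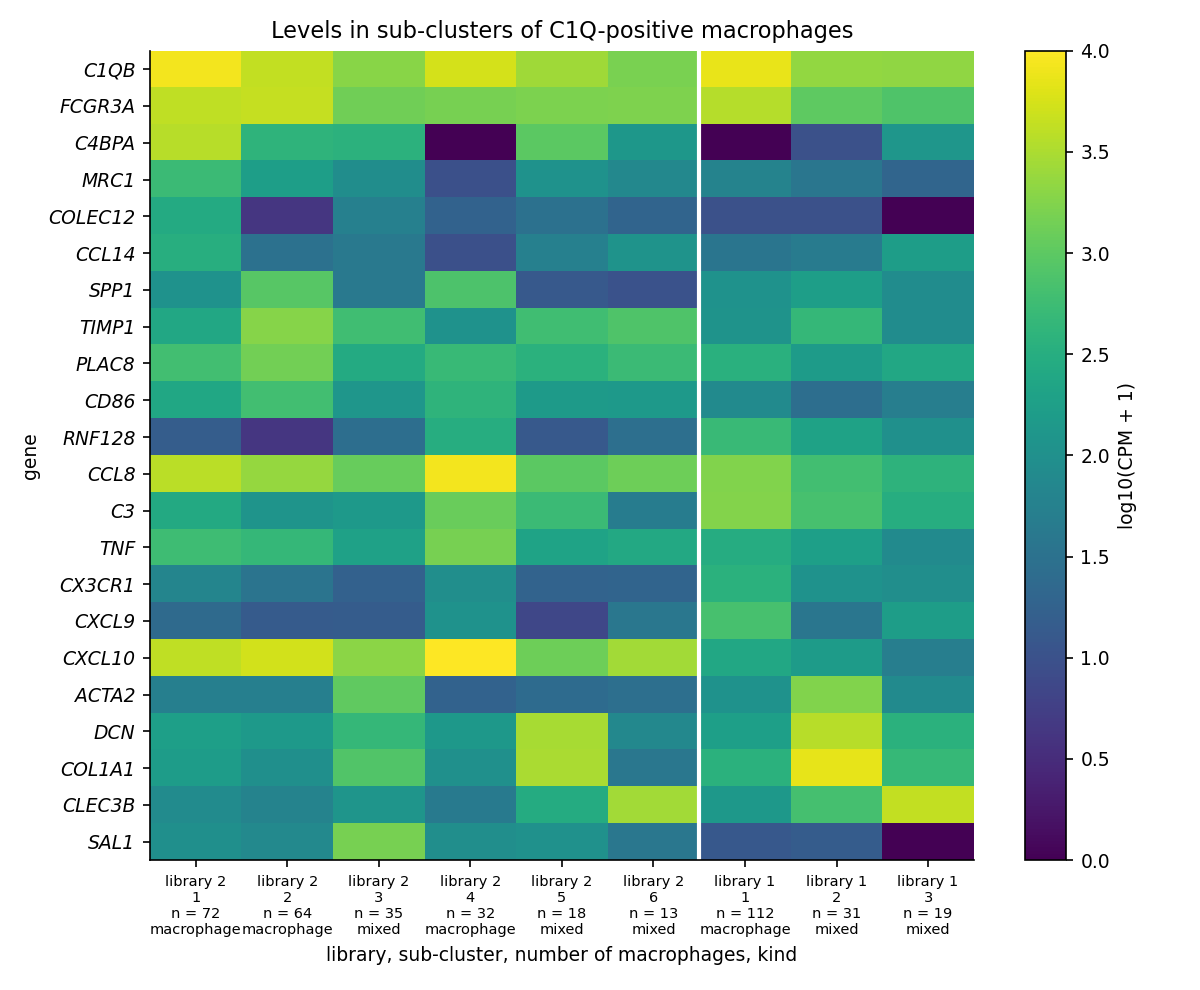
Level of 22 genes (colour, log10 of CPM + 1) in the sub-clusters of C1Q-positive macrophages, library 2 on the left of the white line and library 1 on the right, with the number of macrophages and the kind below each column. C4BPA, MRC1 and COLEC12 are bright in the 72-macrophage sub-cluster of library 2, RNF128 and C3 in its 32-macrophage sub-cluster and in the 112-macrophage sub-cluster of library 1, and ACTA2, DCN, COL1A1 and CLEC3B in the mixed ones.

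Between libraries, gene levels in the macrophages were compared as the log2 ratio of library 2 over library 1 of CPM. Of 7444 genes with a symbol and at least 10 UMIs, 22.1% were at least 2-fold higher and 14.7% at least 2-fold lower in library 2. The counting interval lay wholly past 2-fold for 10.7% and 3.26%. In endothelial barcodes 23.5% were higher and 11.3% lower, and in lymphocyte barcodes 21.0% and 10.7%, so shares of this size were not particular to macrophages. Within the macrophage-led sub-clusters 20.4% of 5830 genes were higher and 14.5% lower. The median over all genes was -0.05. For each list below, the endothelial and lymphocyte medians cover those of its genes with at least 10 UMIs there.

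More chemokine and cytokine genes were at least 2-fold higher than lower in library 2. Of 38 entries, 32 had a symbol and 27 at least 10 UMIs, of which 13 were higher and 5 lower, with a median log2 ratio of 0.60. Over all genes 22.1% were higher and 14.7% lower. The median was 0.32 over 25 of the 27 in endothelial barcodes and -0.07 over 22 in lymphocyte barcodes. CXCL9 and CXCL11, among the 5, rested mostly on 1 barcode, as described below. CXCL10 (ENSSSCG00025020263), an interferon-induced attractant of T cells, stood at 4005 CPM (3896 to 4116) in library 2, against 178 CPM (148 to 211) in library 1, a log2 ratio of 4.49 (95% counting interval 4.24 to 4.76). It was found in 192 of 234 macrophages of library 2 (82.1%) and 41 of 162 of library 1 (25.3%), and in 68.7% and 14.3% after thinning to 1000 UMIs. In endothelial barcodes CXCL10 was in 19.7% and 3.02%, but its log2 ratio there was 0.32. In lymphocyte barcodes the ratio was 4.40, at 168 CPM in library 2, against 7.93 CPM in library 1. CCL8, an attractant of monocytes and T cells, stood at 2553 CPM in library 2, against 1115 CPM in library 1 (1.20, 1.08 to 1.31). In endothelial barcodes CCL8 was at 2.75 and 1.59 CPM.

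The interleukin 1 and tumour necrosis factor genes were also higher in library 2. IL1A stood at 441 CPM in library 2, against 52.4 CPM in library 1 (3.07, 2.60 to 3.59; 2.52 in endothelial barcodes), IL1B had 186 and 73.1 CPM (1.35, 0.92 to 1.81; 1.13 in endothelial barcodes), and TNF had 449 and 212 CPM (1.08, 0.82 to 1.35). TNF had a log2 ratio of -0.06 in endothelial and -1.19 in lymphocyte barcodes. CCL2, the main attractant of monocytes, had 474 and 116 CPM (2.03), with 2.77 in endothelial barcodes. ICAM1, an adhesion ligand for leukocytes, had 887 and 154 CPM (2.52), with 2.15 in endothelial barcodes. IL10, an anti-inflammatory cytokine gene, had 59.5 and 22.1 CPM (1.43, 0.64 to 2.31). CCL4, by contrast, stood at 2893 CPM in library 2, against 2803 CPM in library 1 (0.05, -0.03 to 0.12). Of the 15 inflammatory genes with at least 10 UMIs, 11 were higher and 1 lower, with a median of 1.43, but the median was 2.14 over 12 of them in endothelial and 1.34 over 13 of them in lymphocyte barcodes.

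CXCL9 and CXCL11, which share the receptor of CXCL10, went the other way, and a single barcode held most of their UMIs. CXCL9 stood at 25.0 CPM in library 2, against 376 CPM in library 1, a log2 ratio of -3.91, but it was found in only 4 of 162 macrophages of library 1, against 13 of 234 of library 2. A macrophage of library 1 with 9204 UMIs, not called a doublet, held 238 of its 273 CXCL9 UMIs and 67 of its 68 CXCL11 UMIs, with 3 of CXCL10. Without it CXCL9 was at 48.9 CPM in library 1 and the log2 ratio was -0.96 (-1.70 to -0.23), so it stayed below 0 but no longer passed 2-fold. CXCL11 had 0 UMIs in library 2, so it was at least 39.9-fold lower there with that barcode counted, at a floor of 3 UMIs.

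**Figure D3:**
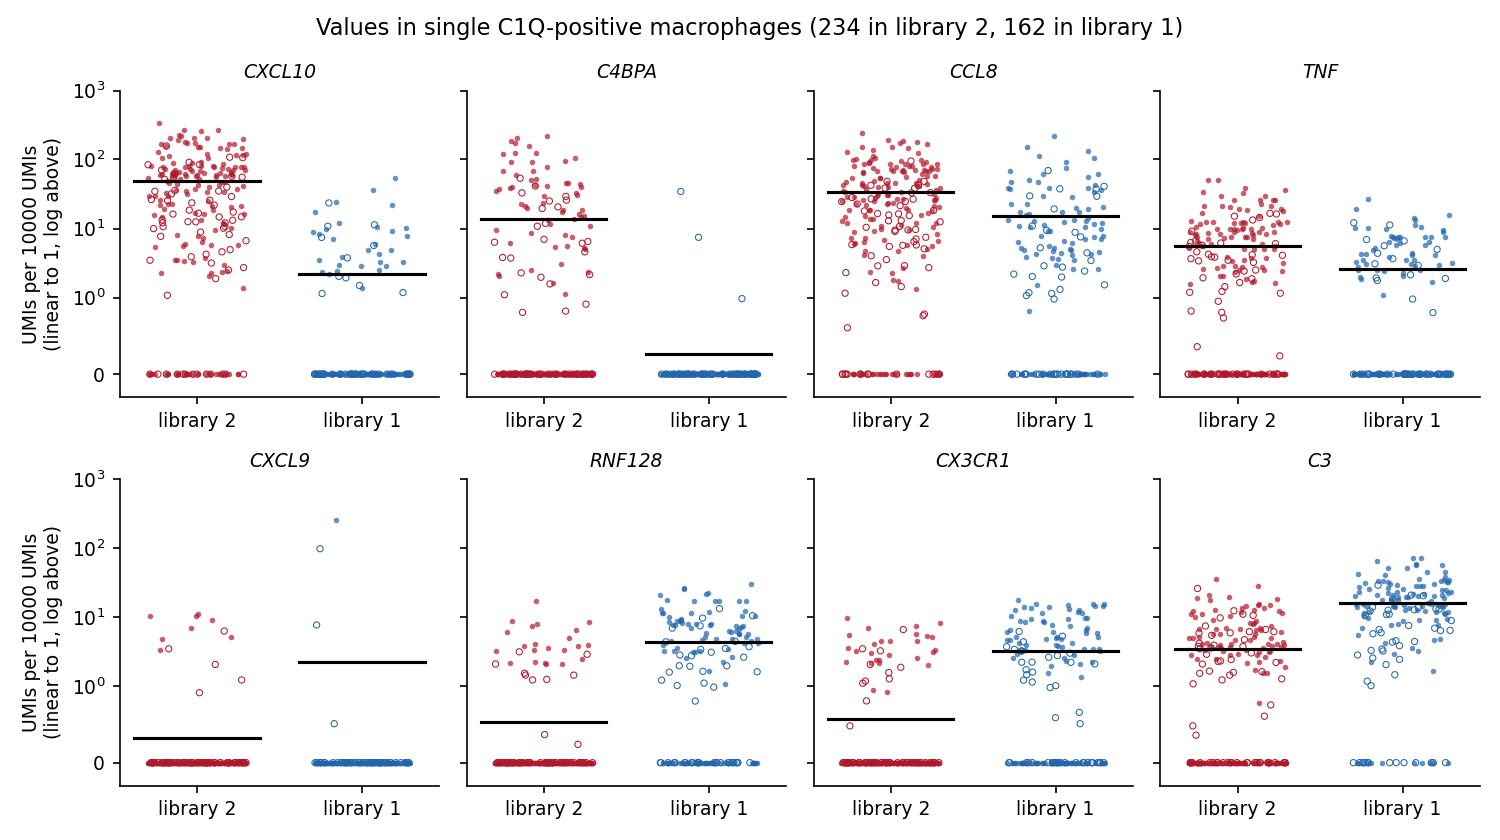
UMIs per 10000 UMIs of 8 genes in each of 234 C1Q-positive macrophages of library 2 (left, red) and 162 of library 1 (right, blue), linear up to 1 and log above; filled points are macrophage-led, open points lie in mixed sub-clusters, and black lines are means over cells. CXCL10 and C4BPA are found in more macrophages of library 2, RNF128, CX3CR1 and C3 in more of library 1, and the CXCL9 of library 1 comes from 4 barcodes.

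Of 19 interferon response genes, 15 had a log2 ratio above 0 and 4 below. At least 2-fold higher were 8, CXCL10 among them, and 2 were lower, namely CXCL9 and CXCL11, which rest on the single barcode above. The median was 0.62, against 1.01 for the same genes in endothelial and 0.42 for 18 of them in lymphocyte barcodes. MX2, an antiviral GTPase gene, stood at 984 CPM in library 2, against 99.3 CPM in library 1 (3.31, 2.97 to 3.67), with 3.00 in endothelial barcodes. BATF2, an interferon-induced transcription factor gene, had 214 and 6.89 CPM (4.95, 3.71 to 6.59), with 2.81 in endothelial barcodes. The summed ratio of MX2 was thus about as high in endothelial barcodes, whereas that of CXCL10 was 0.32 there. CXCL10 was nonetheless found in a larger share of the endothelial barcodes of library 2, as given above.

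Complement genes differed in single members. Of 13 genes of the classical pathway and its regulators, 2 were higher, 1 was lower and 10 lay between, with a median of 0.11, and in the macrophage-led sub-clusters 3 were higher and 3 lower. The C1q chains, on which the rule rests, had log2 ratios of 0.11 for C1QA and -0.21 for C1QB. C3 (ENSSSCG00025070194) stood at 298 CPM (269 to 329.6) in library 2, against 1143 CPM (1066 to 1223) in library 1, a log2 ratio of -1.94 (-2.12 to -1.76). It was found in 51.7% of macrophages of library 2 and 84.6% of library 1, whereas its log2 ratio was 1.70 in endothelial and 0.98 in lymphocyte barcodes. C2, the protease cleaved by C1s, had 57.1 and 19.3 CPM (1.57, with 2.65 in endothelial barcodes), and CFP, which encodes properdin, had 70.4 and 24.8 CPM (1.51, with 1.14 in endothelial barcodes). C4BPA (ENSSSCG00025072714) stood at 966 CPM (913 to 1022) in library 2, against 30.3 CPM (19.0 to 45.9) in library 1, a log2 ratio of 4.99 (4.39 to 5.67). It was found in 86 of 234 macrophages of library 2 (36.8%) and 3 of 162 of library 1 (1.85%), against 1.14% and 0.0617% of endothelial barcodes. All 22 of its UMIs in library 1 lay in mixed sub-clusters, and in the macrophage-led ones it was at least 167-fold higher in library 2.

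Most genes of Fc receptors and their adaptors lay within 2-fold. Of 15 genes, 2 were higher, 1 was lower and 12 lay between, with a median of -0.29. The inhibitory receptor gene FCGR2B stood at 474 CPM in library 2, against 288 CPM in library 1 (0.72, 0.49 to 0.95), and FCGR3A had a log2 ratio of 0.28. TYROBP had 645 and 1290.3 CPM (95% interval of the log2 ratio -1.14 to -0.86) and FCER1G had 502 and 899 CPM (-0.84), and the rule asked for at least 1 UMI of their sum. In lymphocyte barcodes TYROBP was at 96.3 CPM in library 2, against 204 CPM in library 1. SYK, the kinase that docks on these adaptors, had 103 and 34.5 CPM (1.57), with 2.02 in endothelial barcodes. AIF1, an actin-binding protein gene of macrophages, had 456 and 820.2 CPM (-0.85), with -0.47 in endothelial barcodes.

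Of 15 scavenger receptor genes, 7 were at least 2-fold higher in library 2 and 0 lower, with a median of 0.58, against 0.11 in endothelial barcodes. In macrophage-led sub-clusters 5 of 13 were higher and 1 lower. MRC1 stood at 176 CPM in library 2, against 44.1 CPM in library 1 (2.00, 1.46 to 2.58), and was found in 43.2% and 10.5% of macrophages. In endothelial barcodes the log2 ratio of MRC1 was -1.25. CD209, a lectin of dermal and decidual macrophages in humans, had 97 UMIs in library 2 and 0 in library 1, at least 18.4-fold higher, and at least 8.87-fold in macrophage-led sub-clusters, where it had 49 UMIs. COLEC12 had 70.4 and 6.89 CPM (3.35, 2.08 to 5.01), with 3.09 in endothelial barcodes. MERTK, a receptor for dying cells, had 193 and 78.6 CPM (1.30), with 2.59 in endothelial barcodes. Of 9 perivascular or resident genes, 6 were higher and 1 lower, with a median of 2.00, and in macrophage-led sub-clusters 5 of 8 were higher and 0 lower, with a median of 1.69. The summed level of that list differed less, at 1178 CPM in library 2 and 1077 CPM in library 1. In macrophage-led sub-clusters it was 1342 and 1012 CPM. MSR1, a scavenger receptor gene, was not higher in library 2, at 110.3 and 117 CPM (-0.09, -0.49 to 0.32).

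RNF128, CX3CR1 and GPR34 were among the genes named for their low ratio. RNF128 stood at 43.0 CPM (32.4 to 56.0) in library 2, against 328 CPM (288 to 373) in library 1 (-2.93, -3.38 to -2.50), and was in 13.7% and 57.4% of macrophages. Its log2 ratio was 2.00 in endothelial barcodes. CX3CR1 had 36.0 and 226 CPM (-2.65, -3.16 to -2.17) and was in 16.2% and 54.3% of macrophages, with -4.20 in lymphocyte barcodes. GPR34, a lysophospholipid receptor of macrophages and microglia, had 39.9 and 153 CPM (-1.94, -2.45 to -1.45). In the macrophage-led sub-clusters these 3 genes had log2 ratios of -3.03, -2.72 and -1.93. After thinning to 1000 UMIs, CX3CR1 was in 7.49% of macrophages of library 2 and 26.6% of library 1.

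**Figure D4:**
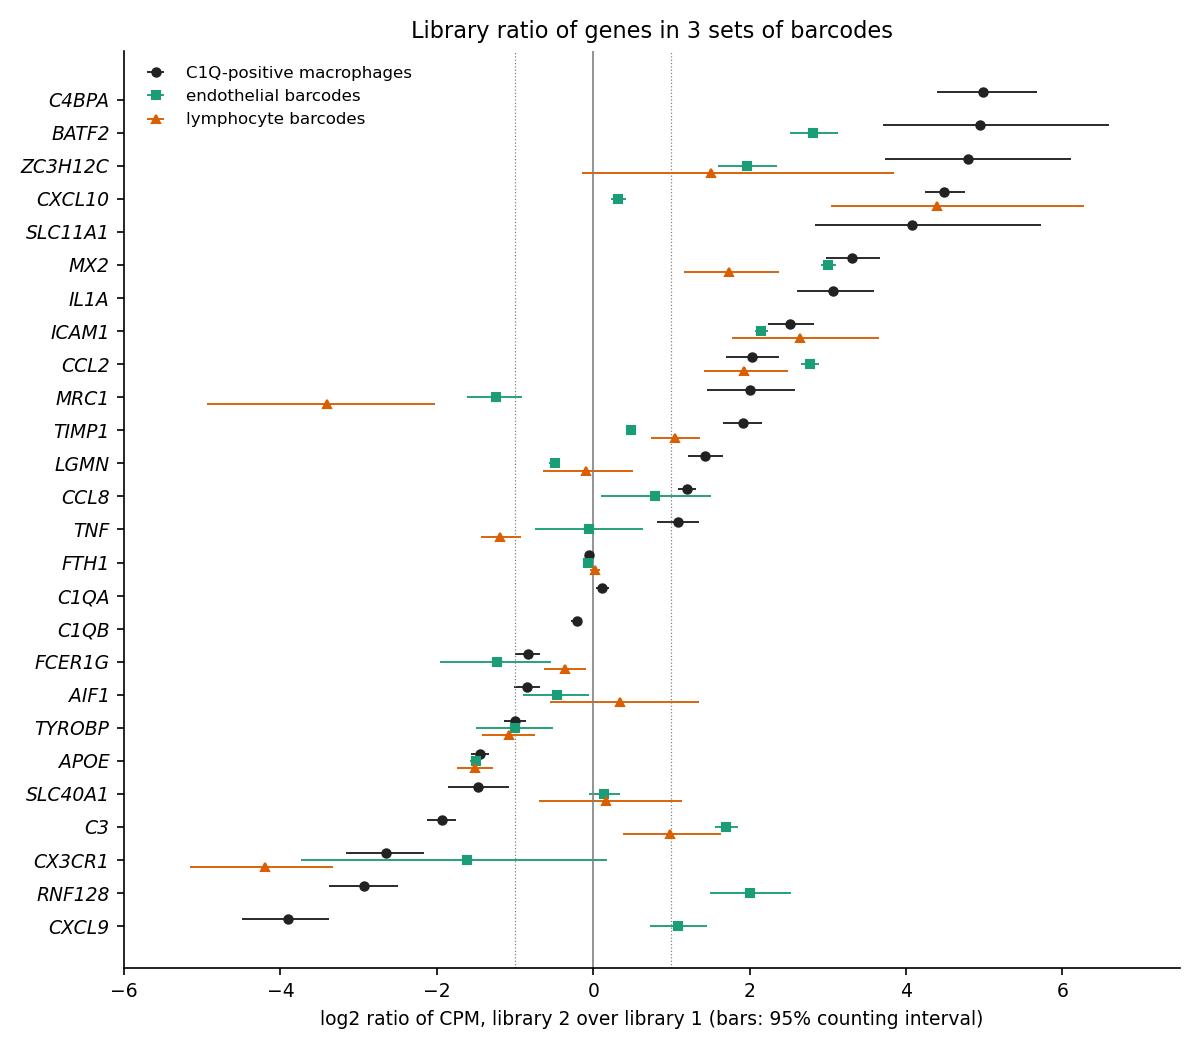
Log2 ratio of CPM, library 2 over library 1, of 26 genes in C1Q-positive macrophages (black), endothelial barcodes (green) and lymphocyte barcodes (orange), with 95% counting intervals and dotted lines at 2-fold; points with an interval wider than 4 are not drawn. APOE sits alike in the 3 sets, whereas C3 and RNF128 lie below 0 in macrophages and above 0 in endothelial barcodes, and MRC1 lies above 0 in macrophages and below 0 in the others.

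Iron and lipid genes differed in single members rather than as groups. Of 13 iron and haem genes, 2 were higher and 2 lower, with a median of -0.05. SLC11A1, which pumps metal ions out of the phagosome, stood at 117 CPM in library 2, against 6.89 CPM in library 1 (4.08, 2.83 to 5.72). The log2 ratio of SLC11A1 was 2.49 in all other barcodes. Endothelial barcodes held only 0.193 and 0.0589 CPM of it. The log2 ratio there was 0.13, with a counting interval too wide to read (-1.63 to 7.33). SLC40A1, the iron exporter ferroportin, had 72.8 and 201 CPM (-1.47, -1.86 to -1.08), with 0.14 in endothelial barcodes. FTH1, the ferritin heavy chain, had 9969 and 10289 CPM (-0.05). HMOX1, which breaks down haem, had 196 and 156 CPM (0.33, 0.00 to 0.66). Of 20 lipid genes, 4 were higher and 5 lower. APOE, a lipid carrier, had 772 and 2101 CPM (-1.45, -1.56 to -1.33), with -1.50 in endothelial and -1.51 in lymphocyte barcodes. ACSL1, which activates fatty acids, had 154 and 17.9 CPM (3.10), with 1.46 in endothelial barcodes.

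Of 14 prostaglandin and leukotriene genes, 7 were higher and 3 lower, with a median of 0.90. The thromboxane synthase gene TBXAS1 was at 178 UMIs in library 2, against 8 in library 1 (3.66), and PTGS2, the inducible cyclooxygenase, had 93.1 and 28.9 CPM (1.69), but both were also higher in endothelial barcodes, at 4.49 and 3.31. HPGD, which inactivates prostaglandins, had 28.2 and 116 CPM (-2.04, -2.64 to -1.46), with -1.31 in lymphocyte barcodes.

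Lysosomal and antigen presentation genes mostly lay within 2-fold. Of 23 lysosome and cathepsin genes, 4 were higher, 0 lower and 19 between, with a median of -0.18. LGMN, the lysosomal protease legumain, was one of the 4, at 751 CPM in library 2, against 278 CPM in library 1 (1.43, 1.21 to 1.66), with -0.49 in endothelial barcodes. CTSS, the cathepsin that trims the MHC class II invariant chain, had 1266 and 1515 CPM (-0.26). All 9 genes of the fixed MHC list with a symbol and at least 10 UMIs lay between, with a median of -0.07. The class II gene SLA-DRA1, named above, was not on that list. CD86 had 292 and 57.9 CPM (2.33, 1.87 to 2.83), with -0.99 in endothelial barcodes. IRF8, a transcription factor of monocytes and dendritic cells, had 519.6 and 266 CPM (0.97, with 1.17 in endothelial and 0.94 in lymphocyte barcodes), and MITF, a regulator of lysosome genes and of macrophage fusion, had 303 and 41.4 CPM (2.87, with 2.18 in endothelial and 3.50 in lymphocyte barcodes).

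Among the other groups, single genes stood out more than whole lists. Of 20 growth factor and matrix genes, 6 were higher and 7 lower, with a median of 0.39. The growth factor gene PDGFC was at 134 CPM in library 2, against 31.7 CPM in library 1 (2.08, with 1.68 in endothelial barcodes), and SPARC, a matrix protein of stromal cells, at 141 and 575 CPM (-2.03, with -1.20 in endothelial barcodes). Of 14 checkpoint and tolerance genes, 6 were higher and 1 lower. LGALS3, a galectin gene of activated macrophages, was at 295 and 46.9 CPM (2.65, 2.15 to 3.21), with 0.10 in endothelial barcodes. Of 16 chemokine and cytokine receptor genes, 3 were higher and 1 lower, and of 13 pattern recognition genes 2 were higher and 1 lower. Of 13 genes of the CSF1 axis, 3 were higher and 0 lower, of 14 migration genes 2 were higher and 2 lower, and of 19 glycolysis genes 5 were higher and 1 lower. PFKFB3, a driver of glycolysis, was at 311 and 52.4 CPM (2.57), with 2.53 in endothelial barcodes. Of 31 immediate early genes, 5 were higher and 0 lower, and of 30 in macrophage-led sub-clusters 2 were higher and 2 lower.

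Some of the highest and lowest ratios were in genes that passed the 2-fold minimum over other barcodes only in the library where they were high. Over other barcodes the log2 ratio of MAP3K2 was 1.14 in library 2 and -0.16 in library 1, that of ZC3H12C 3.33 and 0.50, that of RFTN1 2.23 and 0.38, and that of MAGED2 0.07 and 1.95. MAP3K2, a kinase gene, was at 468 CPM in library 2, against 19.3 CPM in library 1 (95% interval of the log2 ratio 3.84 to 5.48), with 3.72 in both endothelial and lymphocyte barcodes. ZC3H12C, an RNA-binding protein gene, was at 266 and 9.65 CPM (4.79, 3.73 to 6.11), with 1.96 in endothelial barcodes. RFTN1, a lipid raft protein gene, was at 556 and 37.2 CPM (3.90), with 2.40 and 2.46. These 3 genes were thus higher in the other sets too, by different amounts. MAGED2 was lower, at 108 and 609 CPM (-2.50, -2.78 to -2.22), with -0.51 and -0.78.

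Some differences were shared with other cells, and some changed when only the macrophage-led sub-clusters were counted. The cause of those changes was not tested. Nuclear respiratory chain genes had 0 of 27 higher and 16 lower, with a median of -1.16, against -1.53 in endothelial and -1.20 in lymphocyte barcodes. Genes with very long introns had 19 of 23 higher and 0 lower, with a median of 2.53, against 2.83 and 2.82. Steroid and nuclear receptor genes had 7 of 11 higher, with a median of 1.31, against 0.87 in endothelial barcodes, and in macrophage-led sub-clusters 5 of 9 were higher, with a median of 1.23. The oestrogen receptor gene ESR1, at 225 and 84.1 CPM in all macrophages, was at 52.1 and 26.2 CPM in the macrophage-led ones. The stress gene ATF3 had a log2 ratio of 1.28 in all macrophages and 0.31 in the macrophage-led ones, and LGALS1, which encodes a galectin, had -1.36 and -0.30. TIMP1 moved the other way, at 1.91 in all and 3.16 in the macrophage-led ones. The dividing cell list had a median of -1.54 over 13 genes in all macrophages and of 0.50 over 10 genes in the macrophage-led ones, so its direction turned.

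**Figure D5:**
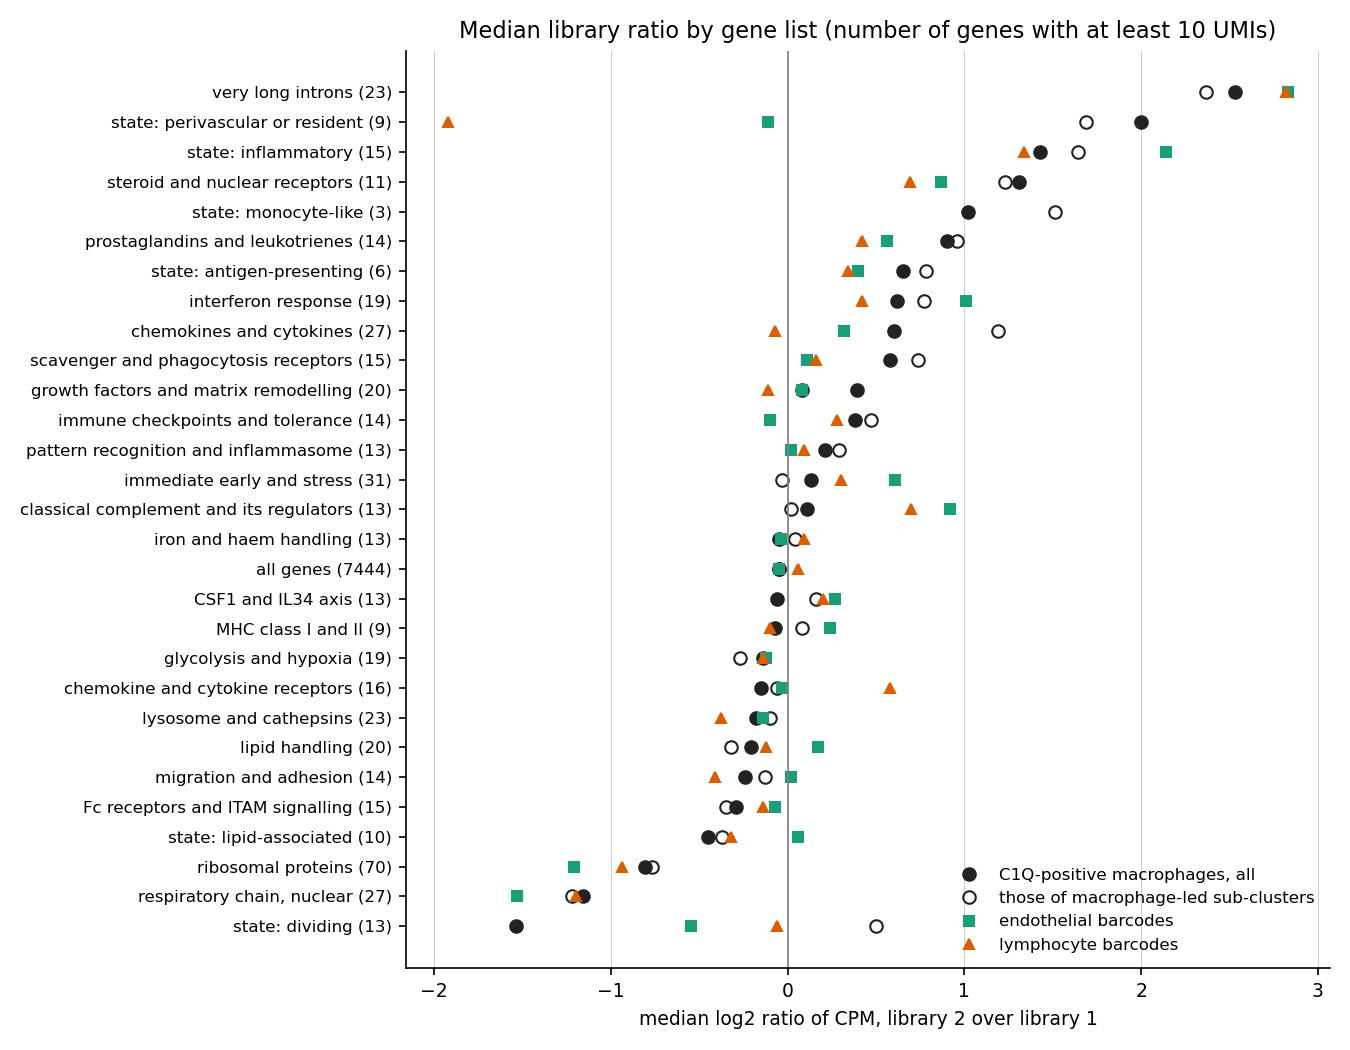
Median log2 ratio, library 2 over library 1, of each gene list (number of genes with at least 10 UMIs in brackets) in all C1Q-positive macrophages (filled), in those of macrophage-led sub-clusters (open), and for the same genes in endothelial (squares) and lymphocyte barcodes (triangles). The perivascular or resident list is at 2.00 in macrophages and below 0 in both other sets, and the dividing list lies at -1.54 in all and at 0.50 in the macrophage-led macrophages.

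Some genes had most of their UMIs in few macrophages. In the macrophage-led sub-clusters of library 2, the top 5% of macrophages (9 cells) held 88.9% of SPP1 UMIs, 62.5% of CCL5, 59.0% of LGALS1 and 51.6% of C4BPA, against 13.1% of all UMIs in the 9 deepest cells. SPP1 was found in 14.3% of these macrophages, with up to 102 UMIs in 1 cell. In those of library 1 the top 6 cells held 100% of CXCL9, 56.5% of LGALS1, 49.3% of FTH1, 49.0% of CPSF6, 47.0% of CTSH and 39.5% of CCL8, against 14.8% of all UMIs. Among all macrophages most leading genes were those of the second cell type in mixed barcodes. Examples are RORB and ACTA2 in library 2 and AQP1 and CAVIN2 in library 1. CXCL9 in library 1 (100%) and SPP1 in library 2 (89.4%) were exceptions, with most of their UMIs in macrophage-led barcodes.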

How the data were processed

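Processed matrices of 2 single-cell libraries were used. Deposited values were raw UMI counts per gene and barcode, checked as whole numbers. They were made with Cell Ranger 6.1.0 per the file headers, while Cell Ranger 2.1.1 stands in the submitters' processing notes. For build, annotation and intron setting, nothing was given in the sources used here, so reads of near-identical genes may be split. Of 26881 identifiers, 16128 had no symbol, and symbols on several rows were summed, which left 10700. There were 0 mitochondrial symbols. Levels are summed UMIs as CPM with exact Poisson intervals, and library ratios have exact conditional binomial 95% intervals, with counts under 3 set to 3. The ratio step was tested on simulated data. Barcodes had at least 500 UMIs, and called doublets (Scrublet in scanpy 1.11.5, 16.4% of library 2 and 11.2% of library 1) were kept. Sub-clusters used 1000 variable genes, 15 components, 15 neighbours and Leiden resolution 0.5 (igraph 0.11.9) within each library.

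Named genes were the 20 with the largest smaller-of-both ratio over other barcodes at 100 CPM or more, the 12 highest and 12 lowest library ratios at 100 CPM or more and at least 2-fold over other barcodes, up to 4 per list at 50 CPM or more, 31 fixed names, the 12 genes with the largest share of UMIs in the top 5% of macrophages, and leading genes of sub-clusters. Other names in the text were chosen after their values were seen. The macrophages, lists and rules were chosen with earlier results of these data known. With 1 library per group, no test was possible and cells were not used as replicates. Alternatives were other C1q, gland and UMI limits, doublets left out, thinning, equal weights, other scalings (TMM from edgeR among them) and, after the data were seen, macrophage-led sub-clusters.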

Additional observations from a re-analysis of the deposited data

How the results depend on the processing

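Each library is 1 sow, so animal, stage and library cannot be told apart, and the rule uses the transcripts it then describes. No paired analysis was possible because each group holds 1 library. The shares of macrophages moved beyond their counting intervals when barcodes were thinned to 1000 UMIs (0.890% in library 2, 1.25% in library 1) and in macrophage-led sub-clusters (1.11% in both), which were chosen after seeing the data. With at least 50 UMIs per gene, 1095 genes were at least 2-fold higher and 496 lower, against 1644 and 1093 with at least 10 UMIs. Fewer genes were compared, so these counts cannot be set against the shares given above. Without called doublets the mixed shares were 43.5% in library 2 and 18.9% in library 1, and the cause was not tested. In library 2 the mixed share was a single sub-cluster of 80 led by TIMP1, at 1577 against 157 CPM in the rest. Its macrophage markers summed to 11929 CPM and its stromal markers to 2833 against 653 CPM. No macrophage-led sub-cluster led by TIMP1 stood apart in that setting. Of 378 list medians under alternatives, 366 moved by less than the counting error. In macrophage-led sub-clusters the dividing list was reversed at 0.50, the monocyte-like list was at 1.51 and the chemokine list at 1.19. Equal weights put the dividing list at -0.24, and a minimum of 1 UMI put the monocyte-like list at 0.10. Without doublets the Fc receptor list was at 0.25, the lysosome list at 0.25 and the growth factor list at -0.25, and with at least 50 UMIs the growth factor list was at -0.14 and the long intron list at 3.69. Thinning put the Fc receptor list at 0.15 and the CSF1 list at 0.32. The causes were not tested. Of 1568 ratios of named genes under alternatives, 122 moved beyond the counting interval and 0 of those past 2-fold changed sign. Of 14 shares of macrophages with a UMI, 11 moved after thinning, as did 7 of 14 shares of UMIs in the top 5% of macrophages. With TMM scaling each log2 ratio is about 0.10 higher. A planned restriction to macrophages with 0 UMIs of genes of other cell types left 56 in library 2 and 6 in library 1 and was not computed.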

Other observations

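Genes without a symbol were over-represented among those that mark the macrophages. Of 286 identifiers without a symbol at 100 CPM or more in both libraries, 29 (10.1%) were at least 8-fold higher in macrophages than in other barcodes in both, against 36 of 922 identifiers with a symbol (3.90%). ENSSSCG00025027850 led them, at 1462 CPM in library 2, against 1796 CPM in library 1, with log2 ratios over other barcodes of 8.52 and 9.12. CPSF6, a gene of messenger RNA 3′ end processing, was among the 20 leading macrophage genes at 989.9 CPM in library 2 and 1516 CPM in library 1, against 48.7 and 71.3 CPM in other barcodes. In the RefSeq table of Sscrofa11.1 its next neighbour on 1 side is LYZ, the lysozyme gene, a symbol that the feature tables do not hold. FOLR1, a folate receptor gene that lies near FOLR2 there, stood at 2434 CPM in library 2, against 1499.8 CPM in library 1.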
